A study of Mus musculus with 112 samples.

Results

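The genes described here are 10 factors of the naive pluripotency network that centres on the nuclear receptor Esrrb: Esrrb, Nr0b1, Nr5a2, Tfcp2l1, Nanog, Tbx3, Zfp42, Prdm14, Fbxo15 and Tcl1. They were chosen by name, and their 10 rows were found in all 112 count files, which hold 25209 genes each. The question was how RNA of these genes left the naive state in embryoid bodies (EBs), in serum and in epiblast-like cells (EpiLCs), how loss of the histone demethylase LSD1 (gene Kdm1a) and its partners changed that, and what the p300/CBP acetyltransferase inhibitor A485 did to their RNA. Bulk RNA-seq came from mouse V6.5 embryonic stem cells (ESCs), kept in serum-free N2B27 medium with LIF and inhibitors of MEK and GSK3 (2i). Naive ESCs were sequenced as WT (n = 11), LSD1 KO (n = 6), LSD1 CI (n = 4), RCOR1 KO (n = 4), RCOR2 KO (n = 4), RCOR1/2 DKO (n = 4), MLL4 KO (n = 2), MLL4/LSD1 DKO (n = 4) and MLL4 KO/LSD1 CI (n = 4). LSD1 KO cells lack the Kdm1a promoter and the exon next to it by CRISPR editing, LSD1 CI cells carry a catalytically inactive LSD1, RCOR1 and RCOR2 are the CoREST scaffolds that bind LSD1, and MLL4 is a histone H3K4 monomethyltransferase. Day 6 EBs, grown as hanging drops, came from WT (n = 7), LSD1 KO (n = 2), LSD1 CI (n = 4), RCOR1 KO (n = 4), RCOR2 KO (n = 2) and RCOR1/2 DKO (n = 4) cells, and a separate set held WT EBs in DMSO, LSD1 KO EBs in DMSO and LSD1 KO EBs in A485 (n = 2 each). Cells after 4 days in serum without 2i or LIF, and EpiLCs after 2 days with FGF2 and activin A, were sequenced as WT, LSD1 KO and LSD1 CI in DMSO and as LSD1 KO in A485 (n = 2 each). LSD1 KO ESCs were also sequenced in DMSO and in A485 (n = 2 each), without and with doxycycline (DOX; n = 2 each), as LSD1Res cells, in which DOX induces tagged LSD1 in the KO (n = 4 each), and beside DKO+LSD1 cells, in which DOX induces LSD1 in the RCOR1/2 DKO (n = 4 each). The study describes mutants as independent clones, and where the labels name no separate culture the p-values measure only the spread between libraries, which may be technical.

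In mouse ESCs, 2i and LIF hold an interlocked set of transcription factors that activate one another and keep the cells in a state like the preimplantation epiblast. Inhibition of GSK3 relieves Tcf7l1 repression of Esrrb, LIF acts through Stat3 on Tfcp2l1, and loss of these inputs starts the exit from the naive state. During exit the naive factors are silenced while formative genes such as Fgf5, Otx2 and Dnmt3b come on, and EB cells go on to mesoderm, endoderm and other lineages. p300 and CBP acetylate histones at active enhancers, and LSD1 with CoREST removes H3K4 methylation and recruits deacetylases there.

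The promoters of 4 members are shown because Esrrb is the hub, while Zfp42, Nr0b1 and Tcl1 gave the clearest contrasts below and hold matches to known motifs. Each runs 5′ to 3′ from 250 bases before to 50 bases after the annotated start, in RefSeq coordinates of GRCm38.p6, a later build than the mm9 of the count files. Capitals mark every match to 7 motifs searched on both strands: TCAAGGTCA (estrogen-related receptor element), TCAAGGCCA (Nr5a element), ATGCAAAT (octamer), GGGTGTGG (KLF box), GGGGCGG (GC box), TTCCNGGAA (STAT box) and TATAAA.
Zfp42, chr8:43306960-43307259, minus strand: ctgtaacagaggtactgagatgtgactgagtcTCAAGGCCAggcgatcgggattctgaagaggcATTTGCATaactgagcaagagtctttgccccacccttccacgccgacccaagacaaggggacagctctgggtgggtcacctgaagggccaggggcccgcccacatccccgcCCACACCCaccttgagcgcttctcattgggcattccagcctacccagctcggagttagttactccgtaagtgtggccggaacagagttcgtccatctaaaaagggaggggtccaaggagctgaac
Nr0b1, chrX:86191525-86191824, plus strand: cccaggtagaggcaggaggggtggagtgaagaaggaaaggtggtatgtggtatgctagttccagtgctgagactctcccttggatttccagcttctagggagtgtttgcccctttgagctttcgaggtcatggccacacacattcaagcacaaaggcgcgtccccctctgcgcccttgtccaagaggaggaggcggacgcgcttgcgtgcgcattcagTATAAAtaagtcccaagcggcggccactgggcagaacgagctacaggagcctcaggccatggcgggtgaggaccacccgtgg
Tcl1, chr12:105222688-105222987, minus strand: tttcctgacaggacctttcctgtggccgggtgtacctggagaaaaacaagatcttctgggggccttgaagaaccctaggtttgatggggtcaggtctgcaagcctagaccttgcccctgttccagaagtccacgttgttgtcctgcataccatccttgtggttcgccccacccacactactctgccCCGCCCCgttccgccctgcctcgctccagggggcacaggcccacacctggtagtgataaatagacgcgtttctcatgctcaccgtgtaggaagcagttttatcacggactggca
Esrrb, chr12:86360867-86361166, plus strand: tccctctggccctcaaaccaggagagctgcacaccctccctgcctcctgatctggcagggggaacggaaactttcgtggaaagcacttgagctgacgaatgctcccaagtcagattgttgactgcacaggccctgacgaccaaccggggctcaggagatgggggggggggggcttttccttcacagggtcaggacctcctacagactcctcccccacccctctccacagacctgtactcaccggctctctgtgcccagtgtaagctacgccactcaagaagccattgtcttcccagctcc
Zfp42 held an Nr5a element at −218, an octamer on the reverse strand at −186 and a KLF box on the reverse strand at −75, counted from the start to the leftmost base of the match. Nr0b1 held TATAAA at −32 and Tcl1 a reverse-strand GC box at −64, and the Esrrb window held none of the 7. Of 32851 promoters of this length, 0.591% held the Nr5a element, 1.74% the octamer, 3.56% the KLF box, 23.2% the GC box and 13.6% TATAAA. The estrogen-related receptor element (0.423% of all promoters) and the STAT box (1.15%) were in none of the 10 promoters listed for 7 of the members. Of the other windows, that of Tfcp2l1 held TATAAA at −28 and an Nr5a2 window held it on the reverse strand at −181, and these matches are letters in a window, not measured binding.

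Library depth ran from 17.2 M to 58.2 M counts with a median of 39.02 M, and the ribosomal precursor Rn45s took 8.06% to 24.9% of them. The libraries WT ESC 1 to 3 and LSD1 KO ESC 1 to 6 had no count on genes that lie only on unplaced contigs, against at least 4241 in each other library, so they were aligned or counted apart and a term for this was kept in the fits they enter. The labels were checked on Kdm1a: with levels as CPM, a gene's count divided by the library's total in M counts, WT ESCs held 141 to 226 CPM, LSD1 KO ESCs held 3.43 to 6.85 CPM, and LSD1Res cells held 10.8 to 38.1 CPM without DOX and 979.6 to 2253 CPM with it. LSD1 CI ESCs held 173 to 182 CPM of Kdm1a, within the WT range. LSD1 CI EBs held 133 to 153 CPM, against 179 to 224 CPM in WT EBs without DMSO. In serum LSD1 CI cells held 129.8 and 129.5 CPM, against 197 and 206 CPM in WT. In EpiLCs they held 111 and 107 CPM, against 170.3 and 170.2 CPM. Outside ESCs, LSD1 CI cells thus had less Kdm1a RNA than WT, beside the mutation. The culture labels matched their markers: the summed level of 14 formative and primed epiblast genes was 4624 to 4743 CPM in WT EpiLCs and 384 to 729 CPM in WT ESCs, and that of 12 early mesoderm and heart genes was 257 to 851 CPM in WT EBs and 5.28 to 10.03 CPM in WT ESCs. In these bulk samples, fewer cells of a type and less RNA per cell cannot be told apart. WT EB library 5 was the lowest of its group for most members and held 0 counts of Nr0b1 and Prdm14. Without it, 69 of 70 calls on single members stood and the other, Fbxo15 in a difference between EBs and ESCs, went from missed to called.

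In naive WT ESCs all 10 genes were expressed, and their levels per length of merged exons (RPKM, the CPM per kilobase; mean ± SD, n = 11) spanned an order in which most neighbours overlapped. The homeobox factor Nanog was highest at 262 ± 26.1 RPKM (mm9 chr6:122657507-122664651, plus strand). The CP2 family factor Tfcp2l1, a target of LIF and Stat3 signalling, followed at 147 ± 34.3 RPKM (chr1:120524522-120581745, plus strand), and Esrrb stood at 122 ± 15.8 RPKM (chr12:87702067-87862578, plus strand). Next came the zinc finger protein Zfp42 (Rex1), long used as a reporter of the naive state, at 116 ± 14.0 RPKM (chr8:44380421-44392363, minus strand), and the F-box protein Fbxo15, an ESC marker gene, at 113 ± 23.4 RPKM. A lower tier held the Akt coactivator Tcl1 at 39.9 ± 8.07 RPKM (chr12:106454965-106460947, minus strand) and the T-box factor Tbx3 at 38.9 ± 9.42 RPKM (chr5:120120871-120134733, plus strand). The nuclear receptor Nr5a2 (Lrh1), an activator of Pou5f1, was at 28.6 ± 2.24 RPKM (chr1:138740161-138857025, minus strand), and Nr0b1 (Dax1), a nuclear receptor relative that lacks the usual DNA-binding domain and acts as a corepressor, at 22.2 ± 5.52 RPKM (chrX:83437114-83441285, plus strand). Prdm14, a PR domain repressor of FGF signalling and DNA methyltransferase genes, was lowest at 13.7 ± 1.79 RPKM (chr1:13103509-13117244, minus strand). Only the steps from Nanog to Tfcp2l1 and from Fbxo15 to Tcl1 had library ranges that did not overlap. Within libraries, those steps and that from Nr0b1 to Prdm14 held in 11 of 11, and the remaining steps held in 4 to 9 of 11.

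On exit from the naive state in EBs, 9 of the 10 members fell by at least 4.52 on the log2 scale and Tbx3 did not. Esrrb went from a median of 577 CPM (402 to 672) in the 11 WT ESC libraries to a median of 3.86 CPM (0.279 to 7.95) in the 7 WT EB libraries. That was a log2 fold change of −7.29 ± 0.39 (adjusted p = 3.91e-13), and it left Esrrb at 0.690% of its WT ESC mean. For these 9 genes no EB library overlapped an ESC library. Nr0b1 ran from a median of 39.3 CPM (20.0 to 55.7) in ESCs to a median of 0.212 CPM (0 to 0.429) in EBs, a log2 fold change of −7.63 ± 0.37. The remaining folds were −7.02 ± 0.43 for Fbxo15, −6.75 ± 0.38 for Zfp42, −6.64 ± 0.43 for Tcl1, −6.41 ± 0.36 for Prdm14, −6.23 ± 0.21 for Nr5a2, −6.07 ± 0.20 for Tfcp2l1 and −4.52 ± 0.33 for Nanog. Nanog had the smallest fold of the 9 and stood at a median of 25.3 CPM (4.41 to 55.1) in EBs. Tbx3, which also acts in mesoderm, endoderm and the developing heart, ran from a median of 183 CPM (113 to 246) in ESCs to a median of 149 CPM (41.6 to 316) in EBs, and its groups overlapped (−0.37 ± 0.32, adjusted p = 0.314, 95% interval −0.99 to 0.25). Of all 17915 genes tested, 14.0% were called lower in EBs, and the median log2 change was −6.53 over the members and 0.09 over all genes.

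**Figure D1:**
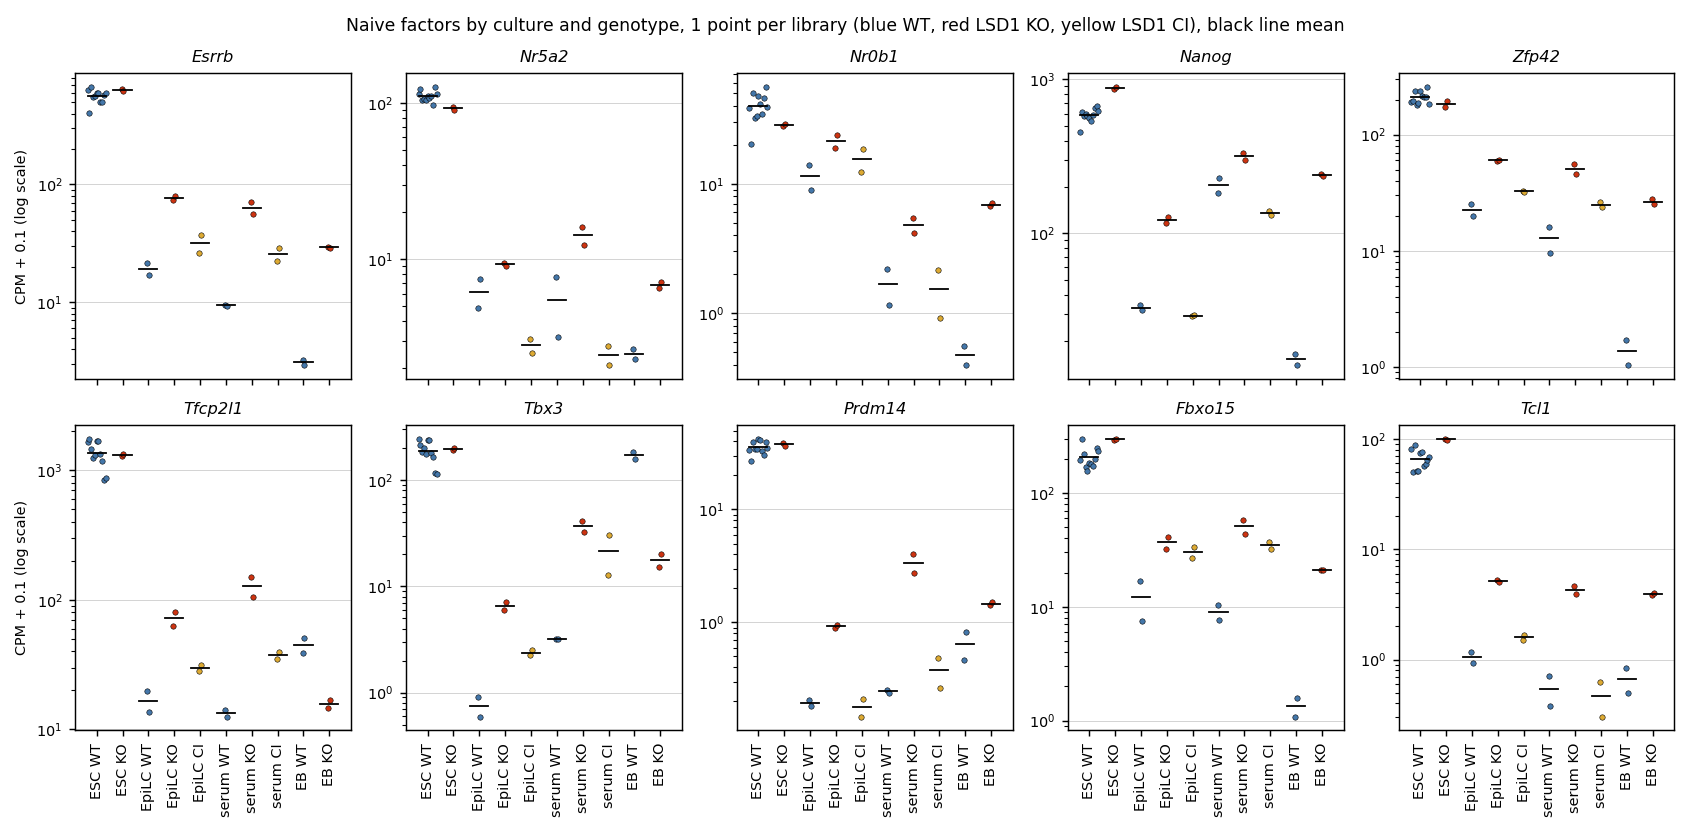
Levels of the 10 members in WT (blue), LSD1 KO (red) and LSD1 CI (yellow) libraries by culture, in CPM on a log10 axis after adding 0.1, with 1 point per library and a line at the group mean; all but the WT ESCs were in DMSO. The WT ESC points lie above the other WT points for each gene except Tbx3, whose WT EB points (186 and 157 CPM) overlap them, and the WT Nanog points in serum (184 and 230.1 CPM) stand far above those in EpiLCs (34.1 and 31.6 CPM).

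In serum 9 members fell, and Nanog was the one that missed the threshold. Esrrb was at 9.42 and 9.12 CPM in the WT serum libraries, both below every WT ESC library (−5.93 ± 0.65, adjusted p = 2.23e-07). Nanog was at 184 and 230.1 CPM against 454 to 669 CPM in ESCs, with no overlap, and its fold of −1.55 ± 0.47 missed the threshold at an adjusted p of 0.0117. The 9 called members stand against 7.75% of all genes. Prdm14 changed most, from a median of 34.5 CPM (26.9 to 42.3) to 0.153 and 0.139 CPM, which rests on 6 counts in each serum library. Tcl1 (−7.15 ± 0.81) and Tfcp2l1 (−6.60 ± 0.37) followed, then Esrrb and Tbx3 (−5.88 ± 0.73), and Zfp42 had the smallest called fold (−4.06 ± 0.58). Here Tbx3 fell with the rest, to 3.08 and 3.07 CPM. Nanog was called lower by DESeq2, with DESeq2 size factors in edgeR, with halved counts, without the alignment term, with the compared groups alone and with the replicate number as a block.

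In EpiLCs all 10 members were called lower, against 7.54% of all genes. Esrrb was at 21.3 and 16.8 CPM (−4.81 ± 0.61, adjusted p = 2.39e-06), which is 3.38% of the WT ESC mean. Tbx3 fell to 0.809 and 0.494 CPM (−8.06 ± 0.85) and Prdm14 to 0.108 and 0.0824 CPM (−8.48 ± 0.76). These were the deepest losses. Nr0b1 lost least, at 13.9 and 8.77 CPM in EpiLCs (−1.79 ± 0.43, adjusted p = 0.00234), and its call went without either WT EpiLC library. Between them lay Tfcp2l1 (−6.20 ± 0.36), Tcl1 (−5.97 ± 0.74), Nanog (−4.12 ± 0.57), Nr5a2 (−4.09 ± 0.33), Fbxo15 (−3.92 ± 0.63) and Zfp42 (−3.15 ± 0.54). The 3 exit comparisons share the WT ESC libraries, which were untreated while the serum and EpiLC libraries were in DMSO. A direct test of WT serum cells against WT EpiLCs, which shares no ESC library, called 2 members: Nanog was higher in serum by 2.57 ± 0.57 (adjusted p = 0.00681) and Nr0b1 was lower in serum (−2.93 ± 0.54, adjusted p = 0.00152). Of all genes 2.62% were called there in either direction, and with any one of the 4 libraries left out 0 or 1 member was called.

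**Figure D2:**
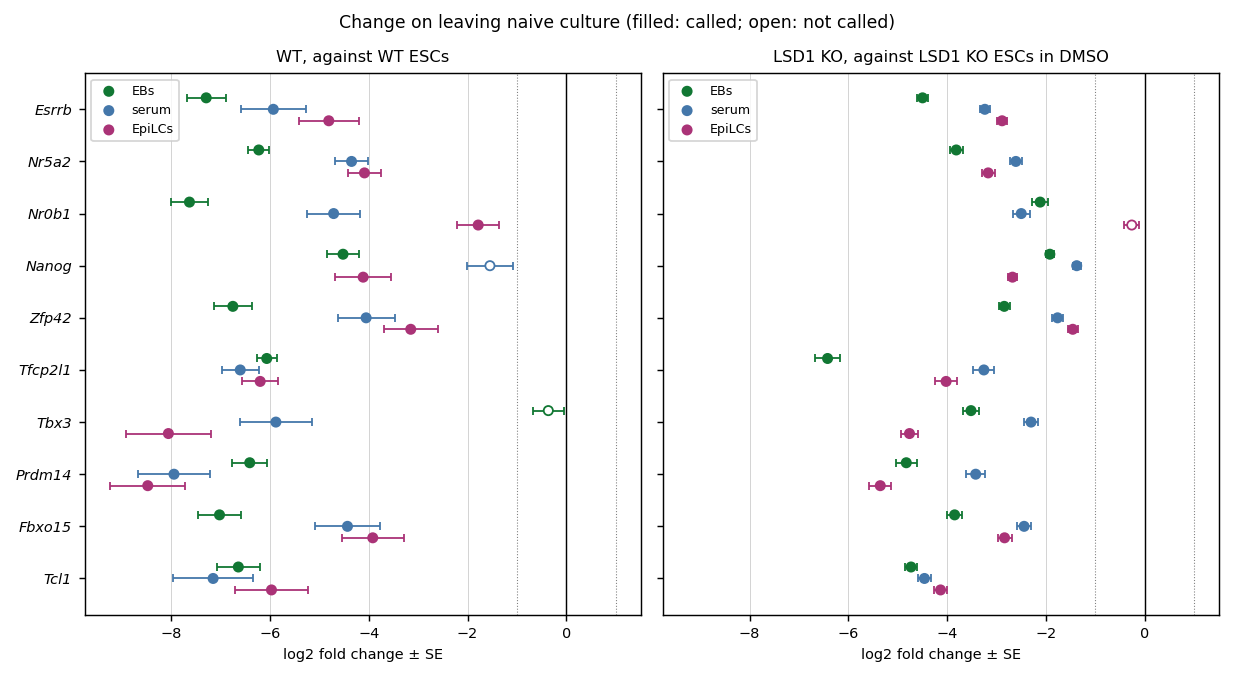
Log2 fold changes of the 10 members on leaving the naive state, with bars of 1 SE, for EBs, serum cells and EpiLCs against ESCs in WT and in LSD1 KO. Values left of 0 are lower than in ESCs: Tbx3 in WT EBs (−0.37 ± 0.32) and Nr0b1 in LSD1 KO EpiLCs (−0.26 ± 0.16) lie nearest 0.

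Most genes of a broader list, the other naive network genes, fell with the members in EBs, and about as many fell as did not in serum and EpiLCs. This list is not restricted to the naive state: it also holds the pluripotency genes Pou5f1 and Sox2 and the Nodal coreceptor gene Tdgf1. Its counts therefore do not measure how much of the naive network was kept. Of 25 other naive network genes, 21 fell in EBs, 13 in serum and 12 in EpiLCs, and 1, Utf1, rose in EpiLCs. Zfp57, a zinc finger protein that guards imprints, fell by 3.12 ± 0.10 in EBs, and Stat3, the transducer of LIF, fell by 2.65 ± 0.19 in EpiLCs. Median log2 changes of this list were −3.46 in EBs, −1.89 in serum and −1.72 in EpiLCs, beside 0.09, −0.02 and −0.04 over all genes. Of 14 formative and primed epiblast genes, 11 rose in EBs, 12 in serum and 13 in EpiLCs, and none fell. Fgf5, the classic marker of the egg cylinder epiblast, went from a mean of 0.0604 CPM in ESCs to 55.4 CPM in EpiLCs. In EBs 11 of 12 early mesoderm and heart genes and 11 of 14 primitive endoderm genes rose as well, and 9 of 10 germ cell genes fell. Of 11 repressors of the naive state and exit factors, 3 rose in EBs (Dusp6, Fgfr1 and Fgfr2) and 1 fell (Etv5), 2 rose in serum (Dusp6 and Fgfr1) and 1 in EpiLCs (Dusp6, a feedback inhibitor of ERK). Of all genes 21.7% rose in EBs, 12.6% in serum and 8.69% in EpiLCs, near the shares of this last list.

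LSD1 KO cells left the naive state by the same test, from ESCs in DMSO. Kdm1a was at 6.12 and 6.30 CPM in these ESCs, against 0.515 and 0.431 CPM in the EBs in DMSO. It was at 1.55 and 1.63 CPM in serum and 0.429 and 0.379 CPM in EpiLCs. The labels do not say whether the KO clones of these cultures were the same. Culture and clone therefore cannot be told apart here. All 10 members were called lower in LSD1 KO EBs in DMSO (background 16.0% of genes called lower) and in LSD1 KO serum cells (12.0%), and 9 in LSD1 KO EpiLCs (11.1%). Esrrb went from 648 and 627 CPM in LSD1 KO ESCs in DMSO to 29.3 and 28.9 CPM in EBs (−4.50 ± 0.11), 70.7 and 55.7 CPM in serum (−3.24 ± 0.11) and 74.2 and 80.1 CPM in EpiLCs (−2.89 ± 0.11). The member that missed was Nr0b1 in EpiLCs, at 18.8 and 23.7 CPM against 28.1 and 28.9 CPM (−0.26 ± 0.16, adjusted p = 0.169). Nanog was called in each, by −1.92 ± 0.08 in EBs, −1.38 ± 0.08 in serum and −2.68 ± 0.09 in EpiLCs. Tbx3 fell in LSD1 KO EBs too, from 191 and 199.5 to 15.2 and 20.0 CPM (−3.52 ± 0.16). How much RNA was left in each culture is set against WT below.

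In serum, LSD1 KO cells held more RNA of 7 members than WT cells did. Esrrb was at 9.42 and 9.12 CPM in WT, 70.7 and 55.7 CPM in LSD1 KO and 22.5 and 29.0 CPM in LSD1 CI cells, so the 3 genotypes did not overlap. LSD1 KO exceeded WT by 2.76 ± 0.16 on the log2 scale (adjusted p = 1.33e-06). Prdm14 rose most (4.46 ± 0.74, from 0.153 and 0.139 to 3.90 and 2.66 CPM), then Tbx3 (3.59 ± 0.43), Tfcp2l1 (3.26 ± 0.24), Tcl1 (3.23 ± 0.55), Fbxo15 (2.50 ± 0.20) and Zfp42 (1.99 ± 0.24). Tfcp2l1 reached 151 and 104 CPM against 14.0 and 12.5 CPM in WT. These 7 calls stand beside 6.22% of all genes called higher. The members not called were Nanog (0.61 ± 0.12, adjusted p = 0.00370), Nr0b1 (1.57 ± 0.47, adjusted p = 0.0251) and Nr5a2 (1.38 ± 0.38, adjusted p = 0.0202). LSD1 CI cells, which share the WT libraries, had 4 members called higher, against 2.41% of all genes: Esrrb (1.503 ± 0.15), Tfcp2l1 (1.53 ± 0.24), Tbx3 (2.83 ± 0.42) and Fbxo15 (2.00 ± 0.20). These cells also held less Kdm1a RNA than WT (values above). Tested directly, LSD1 KO exceeded LSD1 CI in 6 members, against 1.44% of all genes, among them Prdm14 (3.53 ± 0.67), Tcl1 (3.48 ± 0.56) and Esrrb (1.26 ± 0.15). That count was 3 without LSD1 KO serum library 1 or 2 or LSD1 CI serum library 2, and 5 without LSD1 CI serum library 1.

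Genes of other fates moved in the same serum libraries. Of the other naive network genes 7 of 25 were called higher in LSD1 KO than in WT, among them Klf4 (1.58 ± 0.24) and Lifr, the LIF receptor (1.55 ± 0.19). Of 11 trophoblast genes tested 7 were higher, and their summed level was 35.2 to 59.6 CPM in WT, 177 to 216 CPM in LSD1 KO and 183 to 276 CPM in LSD1 CI cells. Of 8 genes of the two-cell-like state 4 were higher (Usp17la, Usp17lc, Zfp352 and Pramef25), and of 10 neural genes 4 were lower (Tubb3, Olig2, Sox1 and Nefl). Of 10 germ cell genes 5 were higher, among them Prdm1, Tfap2c, Dppa3 and Dazl, and of 12 primitive endoderm genes tested 3 were higher (Dab2, Gata6 and Pdgfra). Of all genes 3.34% were called lower. Of 11 naive repressors and exit factors 1, Fgfr2, was higher, and none of 9 early mesoderm and heart genes tested was called. None of the formative and primed epiblast genes was called, at a median of 0.06, and their summed level was 2614 to 3200 CPM in WT and 2139 to 2304 CPM in LSD1 KO cells. The part of these other genes in the members' levels was not tested.

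In EpiLCs, LSD1 KO cells again held more RNA of 7 members than WT, and LSD1 CI cells more of 1. Esrrb was at 21.3 and 16.8 CPM in WT, 74.2 and 80.1 CPM in LSD1 KO and 26.1 and 37.3 CPM in LSD1 CI EpiLCs. LSD1 KO exceeded WT by 1.98 ± 0.18 (adjusted p = 5.14e-05), with no overlap. Nanog, at 117 and 128 CPM against 34.1 and 31.6 CPM, was called here (1.86 ± 0.22), as were Tbx3 (3.28 ± 0.29), Prdm14 (3.05 ± 0.80), Tcl1 (2.37 ± 0.34), Tfcp2l1 (2.09 ± 0.18) and Zfp42 (1.38 ± 0.10). Of all genes 6.82% were called higher. Even so, Tbx3 reached 5.82 and 6.998 CPM and Prdm14 0.797 and 0.847 CPM, far below any WT ESC library. Fbxo15 (1.59 ± 0.38, adjusted p = 0.0236), Nr0b1 (0.88 ± 0.24, adjusted p = 0.0156) and Nr5a2 (0.55 ± 0.23, adjusted p = 0.0721) were not called. LSD1 CI against the same WT libraries gave 2 calls beside 2.15% of all genes in either direction, with Tbx3 higher (1.84 ± 0.30) and Nr5a2 lower (−1.15 ± 0.24). This count was 4 without WT EpiLC library 1, 1 without LSD1 CI EpiLC library 1, and 0 without WT EpiLC library 2 or LSD1 CI EpiLC library 2. LSD1 KO exceeded LSD1 CI in 7 members (3.01% of all genes), and the count was 3 and 2 without LSD1 KO EpiLC library 1 and 2, and 1 and 3 without LSD1 CI EpiLC library 1 and 2. Of the other naive network genes 10 of 25 were higher in LSD1 KO than in WT EpiLCs, among them Klf2 (1.77 ± 0.15) and Tet2 (1.46 ± 0.10), while 1 of 14 formative genes, Pim2, was lower and 7 of 12 trophoblast genes were higher. Of all 15986 genes tested, 426 were called lower. The summed level of the formative genes was nevertheless lower, at 4624 to 4743 CPM in WT and 2919 to 2937 CPM in LSD1 KO EpiLCs.

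EBs without both RCOR1 and RCOR2 held more RNA of 9 members than WT EBs and less of Tbx3. Esrrb was at 110.1, 121, 159 and 129.6 CPM in the RCOR1/2 DKO EBs and at most 7.95 CPM in the 7 WT EB libraries. Its log2 fold change was 5.04 ± 0.62 (adjusted p = 9.44e-07), and at 23.1% of the WT ESC mean it was below every WT ESC library. Nr0b1 rose most, to 20.0, 21.2, 22.9 and 18.7 CPM (6.48 ± 0.71), which overlaps the range of WT ESCs (20.0 to 55.7 CPM). Zfp42 (5.40 ± 0.62), Fbxo15 (4.79 ± 0.63), Tcl1 (4.30 ± 0.72), Nr5a2 (4.18 ± 0.27), Nanog (3.54 ± 0.55) and Prdm14 (3.11 ± 0.57) rose by more than 3, and Tfcp2l1 by 1.37 ± 0.24. Tbx3 went the other way, to 8.75, 9.39, 17.9 and 14.2 CPM (−3.62 ± 0.51). Of all genes 14.1% were called higher and 12.3% lower in these EBs. EBs with single loss were tested against WT EBs and not against the RCOR1/2 DKO. RCOR1 KO EBs had no member called by edgeR (background 0.00558% in either direction), 0 at an unadjusted p under 0.05 and 0 by DESeq2, and RCOR2 KO EBs had Tbx3 called lower (−3.03 ± 0.68, 21.5 and 17.3 CPM, background 5.28%), near its level in the RCOR1/2 DKO, a call that went without RCOR2 KO EB library 1 or 2. Esrrb was at 3.68, 6.52, 1.25 and 11.2 CPM in RCOR1 KO and 7.11 and 9.09 CPM in RCOR2 KO EBs. In RCOR2 KO EBs Nanog (57.1 to 109 CPM), Zfp42 (5.87 to 6.46 CPM) and Nr5a2 (2.65 to 3.75 CPM) were not called. They lay above every WT EB library, which held at most 55.1, 5.29 and 2.27 CPM of these genes. The remaining members except Tbx3 overlapped WT EBs.

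LSD1 KO EBs whose labels name no DMSO, with 2 libraries, had 5 members called higher and Tbx3 lower, beside 8.28% and 5.42% of all genes. Esrrb was at 21.9 and 7.32 CPM, of which the lower lay within the WT range, and its fold of 1.91 ± 0.71 was not called (adjusted p = 0.0388). Nanog was at 220.0 and 226 CPM against at most 55.1 CPM in WT EBs (2.98 ± 0.63). The other members called higher were Nr0b1 (3.59 ± 0.77), Zfp42 (3.27 ± 0.67), Fbxo15 (2.66 ± 0.70) and Nr5a2 (1.68 ± 0.32), with Tbx3 at −2.77 ± 0.66. These 6 calls came to 1 without LSD1 KO EB library 1, 3 without library 2 and 3 with the compared groups alone. LSD1 CI EBs had no member called against WT EBs by edgeR (2.54% of all genes in either direction) or DESeq2 and 1 at an unadjusted p under 0.05, with Esrrb at 6.58, 2.82, 2.39 and 0.215 CPM and its 95% interval from −1.61 to 0.93 on the log2 scale. Directly against LSD1 CI EBs, LSD1 KO EBs had Nanog (3.54 ± 0.75) and Nr5a2 (1.72 ± 0.37) higher and Tbx3 lower (−3.28 ± 0.70), beside 11.4% of all genes. Of the other naive network genes 11 of 25 were higher and 2, Lifr and Tet2, lower in LSD1 KO than in WT EBs, and 7 of 12 early mesoderm and heart genes and 10 of 14 primitive endoderm genes were lower. The primitive endoderm genes summed to 472 to 1176 CPM in WT and 208 to 243 CPM in LSD1 KO EBs. The sum of the early mesoderm and heart genes was not lower as a whole, at 257 to 851 CPM in WT and 487 to 628 CPM in LSD1 KO EBs. The count of 3 against LSD1 CI came to 1 without LSD1 KO EB library 1 or 2 and to 6 without LSD1 CI EB library 1.

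**Figure D3:**
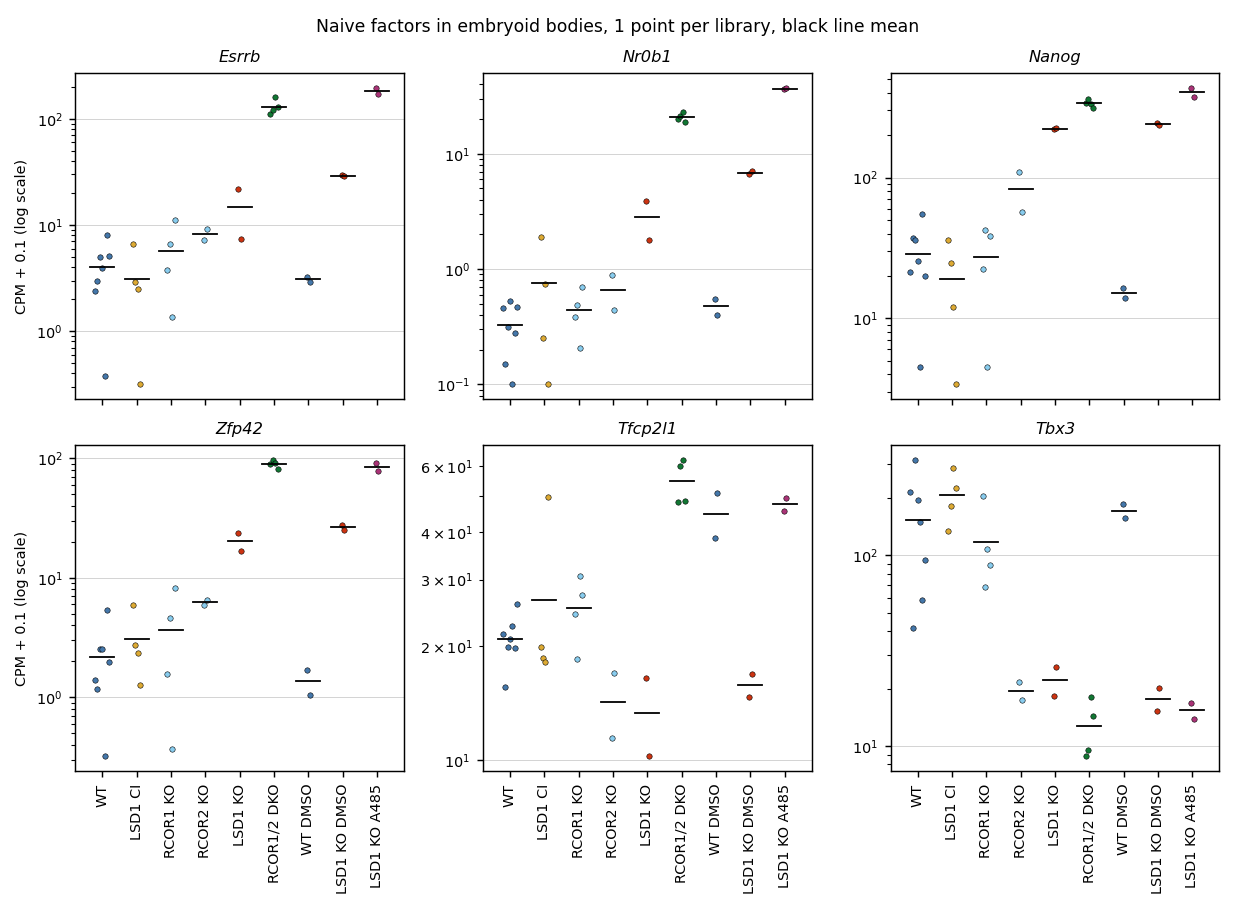
Levels of 6 members in every EB library, in CPM on a log10 axis after adding 0.1, by genotype and treatment, with 1 point per library and a line at the group mean. RCOR1/2 DKO EBs lie above the WT EBs without DMSO for Esrrb, Nr0b1, Nanog, Zfp42 and Tfcp2l1 and below them for Tbx3, and LSD1 KO EBs in A485 lie above those in DMSO for Esrrb (195 and 172 against 29.3 and 28.9 CPM).

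The separate EB set in DMSO, with tighter libraries, gave more calls for loss of LSD1. Esrrb was at 3.12 and 2.82 CPM in WT and 29.3 and 28.9 CPM in LSD1 KO EBs (3.20 ± 0.14, adjusted p = 1.99e-08). In all, 7 members were called higher and 2 lower, beside 11.7% and 7.13% of all genes. Zfp42 (4.26 ± 0.22), Nr0b1 (4.06 ± 0.24), Fbxo15 (4.02 ± 0.19), Nanog (3.90 ± 0.14), Tcl1 (2.64 ± 0.31) and Nr5a2 (1.41 ± 0.20) rose with Esrrb. Tfcp2l1 fell, from 38.7 and 50.8 to 14.6 and 16.8 CPM (−1.59 ± 0.16), and Tbx3 fell from 186 and 157 to 15.2 and 20.0 CPM (−3.37 ± 0.17). In the EBs whose labels name no DMSO, Tfcp2l1 was at 15.5 to 25.8 CPM in WT. LSD1 KO EBs there held 10.1 and 16.3 CPM of Tfcp2l1, which overlap WT, and it was not called. Prdm14 was at 0.370 and 0.717 CPM in WT and 1.33 and 1.41 CPM in LSD1 KO EBs and was not called (1.27 ± 0.38, adjusted p = 0.0191). Of the other naive network genes 16 of 25 were higher and 1, Lifr, lower, the higher ones including Pou5f1 (3.83 ± 0.15) and Tdgf1, a Nodal coreceptor (3.96 ± 0.15). Beside this, 11 of 14 primitive endoderm genes and 8 of 12 early mesoderm and heart genes were lower, and 6 of 9 neural genes, 7 of 10 germ cell genes and 8 of 8 genes of the two-cell-like state were higher. The primitive endoderm genes summed to 999 to 1024 CPM in WT and 189.8 to 230.4 CPM in LSD1 KO EBs, and the early mesoderm and heart genes to 559 to 647 and 332 to 411 CPM. In the RCOR1/2 DKO EBs the same 2 lists had 11 of 14 and 11 of 12 genes lower, with early mesoderm and heart genes at 9.49 to 14.1 CPM, and 17 of 25 other naive network genes were higher. Tbx3 is itself a gene of these lineages, and what part the lower endoderm and mesoderm RNA had in its fall was not tested.

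The effect of LSD1 loss was then tested against its own effect in naive ESCs, as a difference of differences in one fit that holds the untreated ESC libraries. In EBs 6 members differed, beside 13.8% of all genes in either direction: Nr0b1 by 4.74 ± 0.50, Zfp42 by 3.06 ± 0.47, Esrrb by 2.65 ± 0.51, Nanog by 2.23 ± 0.45 and Nr5a2 by 1.56 ± 0.31, with Tbx3 at −3.36 ± 0.62. In serum 6 members were higher, beside 2.06%: Prdm14 by 4.37 ± 0.69, Esrrb by 3.55 ± 0.63, Tcl1 by 3.47 ± 0.72, Tfcp2l1 by 3.20 ± 0.37, Tbx3 by 3.05 ± 0.68 and Nr0b1 by 2.75 ± 0.55. In EpiLCs Esrrb (2.76 ± 0.61) and Tfcp2l1 (2.02 ± 0.36) were higher, beside 1.64%. Esrrb is the member called in all 3, and the 3 tests share the ESC libraries. They take the effect in ESCs from the 6 untreated LSD1 KO ESC libraries, where Esrrb (−0.80 ± 0.09) and Nr0b1 (−1.19 ± 0.17) were below WT in the fit of the ESC libraries, and this adds to the differences of both genes. Against WT of the same culture, Esrrb in these EBs (1.91 ± 0.71) and Nr0b1 in serum (1.57 ± 0.47) were not called. LSD1 KO ESCs in DMSO or without DOX, which are not in this fit, held both genes within the WT range (values below), and the differences were not tested from them. Tbx3 differed in opposite directions in EBs and in serum. The serum count of 6 came to 2 without WT serum library 2 and 3 without LSD1 KO serum library 1, and the EpiLC count of 2 came to 0 or 1 without any one of the 4 EpiLC libraries.

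A485 lowered all 10 members in naive LSD1 KO ESCs, by amounts that ranged widely. Esrrb was at 648 and 627 CPM in DMSO and 263 and 282 CPM in A485, with no overlap (−1.29 ± 0.07, adjusted p = 5.99e-12). Tcl1 was at 100.3 and 96.9 CPM in DMSO and 1.25 and 1.79 CPM in A485 (−6.07 ± 0.12, adjusted p = 2.44e-17). This was the deepest loss of the 10, and Nr0b1 came next, from 28.1 and 28.9 to 2.14 and 2.88 CPM (−3.56 ± 0.15). Tfcp2l1 (−2.10 ± 0.07), Fbxo15 (−1.90 ± 0.07), Nanog (−1.56 ± 0.07), Tbx3 (−1.46 ± 0.07), Prdm14 (−1.19 ± 0.09), Zfp42 (−1.18 ± 0.08) and Nr5a2 (−1.06 ± 0.07) fell by between 1 and about 2. Of all genes 11.7% were called lower, and 11 of 25 other naive network genes fell, among them Tdgf1 (−2.61 ± 0.07) and Spp1 (−2.26 ± 0.08), which encodes osteopontin. A485 was given to LSD1 KO cells in each culture, and WT cells in A485 were not analysed here.

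In LSD1 KO serum cells A485 lowered 8 members and raised none, beside 12.5% of all genes called in either direction. Esrrb was at 70.7 and 55.7 CPM in DMSO and 9.71 and 8.47 CPM in A485 (−2.87 ± 0.16, adjusted p = 3.32e-07), beside 9.42 and 9.12 CPM in WT serum cells in DMSO. Nr5a2 went from 15.9 and 12.3 to 0.532 and 0.533 CPM (−4.80 ± 0.48). Nr0b1 (−5.55 ± 0.66) and Tcl1 (−5.08 ± 0.64) were left with 6 and 2 and with 8 and 2 counts in the A485 libraries, so their folds are imprecise. Prdm14 (−3.65 ± 0.68), Fbxo15 (−2.15 ± 0.20), Tbx3 (−1.93 ± 0.39) and Tfcp2l1 (−1.86 ± 0.23) also fell, and the Tbx3 call went without any one of the 4 libraries. Nanog passed the adjusted p and missed the fold threshold (−0.96 ± 0.12), and Zfp42 was not called (−0.56 ± 0.23, adjusted p = 0.0828). The other naive network genes had 14 lower and 1, Il6st, higher of 25, and 7 of 14 formative genes fell.

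In LSD1 KO EpiLCs A485 lowered 4 members, Esrrb not among them, beside 10.2% of all genes called lower. Esrrb was at 74.2 and 80.1 CPM in DMSO and 92.7 and 77.2 CPM in A485, ranges that overlap (0.03 ± 0.17, adjusted p = 0.902, 95% interval −0.30 to 0.35). Tfcp2l1 (0.22 ± 0.16) and Tbx3 (−0.13 ± 0.24) were not called either, with intervals of −0.10 to 0.54 and −0.59 to 0.34. Nr0b1 fell from 18.8 and 23.7 to 0.681 and 0.917 CPM (−4.83 ± 0.32), and Tcl1 from 5.15 and 4.93 CPM to 6 and 2 counts in the A485 libraries (−5.80 ± 0.46). Nr5a2 (−2.81 ± 0.26) and Nanog (−1.68 ± 0.22) fell by less. Of 14 formative genes 11 fell, among them Dnmt3b (−2.60 ± 0.05), a de novo DNA methyltransferase, and 13 of 25 other naive network genes fell, among them Pou5f1 (−1.91 ± 0.07).

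In LSD1 KO EBs the change was upward: A485 raised 8 members and lowered none, beside 4.26% of all genes called higher. Esrrb was at 29.3 and 28.9 CPM in DMSO and 195 and 172 CPM in A485 (2.75 ± 0.13, adjusted p = 9.95e-08). Nr0b1 went from 6.61 and 6.94 to 36.3 and 37.0 CPM (2.53 ± 0.18) and Tcl1 from 3.78 and 3.88 to 22.2 and 17.1 CPM (2.45 ± 0.26). These were the genes most lowered by A485 in ESCs. Prdm14 (3.01 ± 0.34), Fbxo15 (2.26 ± 0.15), Nr5a2 (2.11 ± 0.19), Zfp42 (1.77 ± 0.18) and Tfcp2l1 (1.69 ± 0.16) rose too, Nanog was higher by less than the fold threshold (0.85 ± 0.13, adjusted p = 0.000322), and Tbx3 was not called (−0.12 ± 0.17, interval −0.44 to 0.21). The other naive network genes had 16 higher and 2 lower (Gbx2 and Socs3) of 25, the higher ones including Dppa5a (2.83 ± 0.17) and Dppa3 (2.72 ± 0.18), and 4 of 10 germ cell genes, a list that also holds Dppa3, were higher (Dppa3, Tfap2c, Stk31 and Nanos3). In the same libraries 7 of 12 early mesoderm and heart genes fell, with T (brachyury) at a mean of 299 CPM in DMSO and 6.43 CPM in A485, and their summed level was 332 to 411 CPM in DMSO and 11.2 to 13.8 CPM in A485. Of 9 neural genes 5 fell (Nes, Nefl, Tubb3, Pax3 and Zic1), and of 8 genes of the two-cell-like state 5 fell (Pramef25, Zscan4d, Zfp352, Tcstv3 and Zscan4c). What part the lower mesoderm and neural RNA had in the members' higher CPM was not tested. By the study's figure legends the A485 dose was much lower in EBs, where it was given during differentiation, than in ESCs. The values of the 4 cultures therefore stand side by side with no test between them. The LSD1 KO libraries in DMSO serve in these comparisons and in those against WT and against ESCs above, so the folds are not independent of each other.

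**Figure D4:**
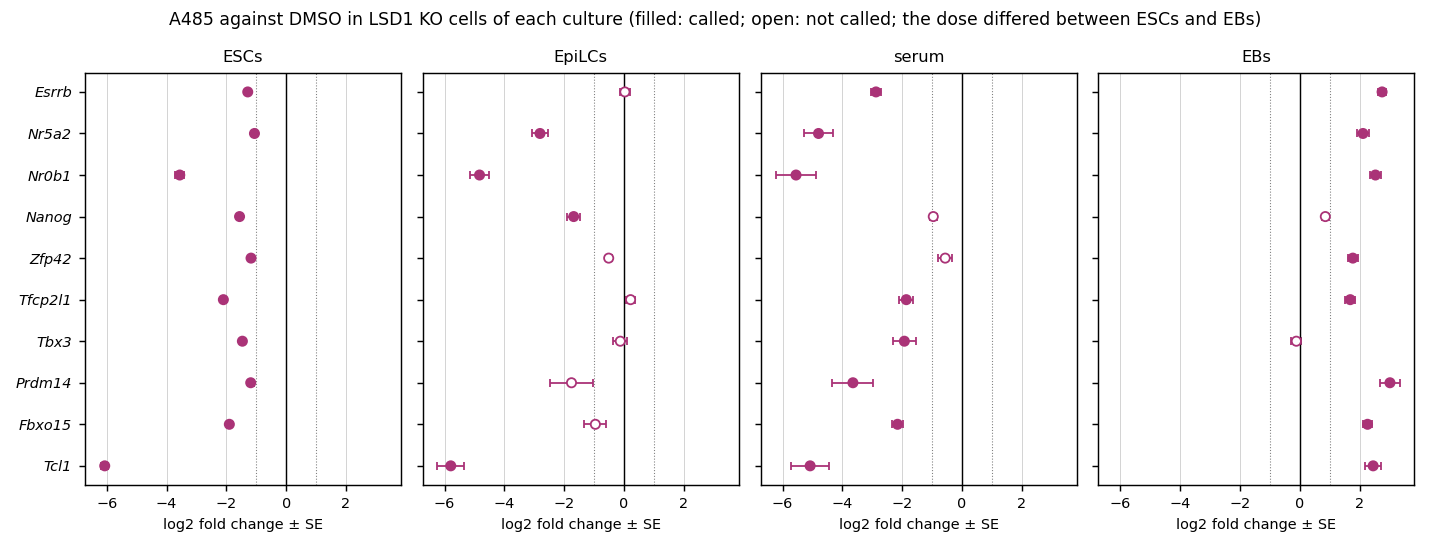
Log2 fold changes of the 10 members in A485 against DMSO in LSD1 KO ESCs, serum cells, EpiLCs and EBs, with bars of 1 SE. Points right of 0 are higher in A485: the EB points lie right of 0 for each gene but Tbx3 (−0.12 ± 0.17), and the ESC points lie left of 0 for all, Tcl1 farthest (−6.07 ± 0.12).

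In naive ESCs without A485, 0 to 2 of the 10 members were called in each mutant, shares near those of all genes called, and no test was made between mutants. Nr0b1 was the member called in LSD1 KO ESCs, from a median of 39.3 CPM (20.0 to 55.7) in WT to a median of 16.1 CPM (15.2 to 18.7) in LSD1 KO ESCs (−1.19 ± 0.17, adjusted p = 2.36e-07). That is 1 member called beside 13.3% of all genes. Esrrb, at a median of 339 CPM (325 to 358), was lower by 0.80 ± 0.09 (adjusted p = 7.55e-09), and Nanog (0.69 ± 0.10) and Fbxo15 (0.83 ± 0.14) were higher, all within the fold threshold. The WT libraries counted in the same way as these LSD1 KO libraries, WT ESC 1 to 3, held Esrrb at 633, 402 and 672 CPM and Nr0b1 at 38.6, 20.0 and 50.1 CPM, so within that alignment neither gene overlapped. LSD1 KO ESCs sequenced in the other sets lay within the WT range, with Esrrb at 648 and 627 CPM and Nr0b1 at 28.1 and 28.9 CPM in DMSO, and with Esrrb at 510.2 and 499 CPM and Nr0b1 at 27.6 and 20.2 CPM without DOX. The RCOR1/2 DKO ESCs had Nr0b1 called lower too (−1.41 ± 0.16, adjusted p = 1.75e-09, 18.4, 16.3, 17.0 and 15.5 CPM), beside 18.3% of all genes, and Nanog was higher by 0.75 ± 0.08. LSD1 CI ESCs (3.91% of all genes called), RCOR1 KO ESCs (0.0227%) and RCOR2 KO ESCs (4.30%) had no member called by edgeR or DESeq2, with 2, 1 and 5 members at an unadjusted p under 0.05, and Nr0b1 stood at 36.5, 32.8, 41.4 and 40.4 CPM in LSD1 CI ESCs. In RCOR2 KO ESCs Tbx3 (0.65 ± 0.17), Tcl1 (0.63 ± 0.14) and Tfcp2l1 (0.53 ± 0.13) passed the adjusted p within the fold threshold. WT ESC libraries 6 and 7 are listed beside the RCOR2 KO libraries in the series. They held Tfcp2l1 at 1687 and 1687 CPM and Tbx3 at 238 and 239 CPM. RCOR2 KO ESCs held 1701 to 1774 and 246 to 275 CPM of these. Tcl1 was at 74.7 and 76.2 CPM in those WT libraries and 82.8 to 98.9 CPM in RCOR2 KO ESCs. A test against those WT libraries alone was not made.

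In MLL4 KO and MLL4 KO/LSD1 CI ESCs the member called was Tcl1. It was at a median of 63.7 CPM (50.3 to 88.7) in WT, 6.22 and 9.49 CPM in MLL4 KO and 5.65, 8.81, 6.42 and 8.89 CPM in MLL4 KO/LSD1 CI ESCs, and no mutant library reached a WT library. The folds were −3.06 ± 0.25 (adjusted p = 1.36e-12) and −3.10 ± 0.18 (adjusted p = 6.77e-17), the one call in each beside 10.4% and 13.2% of all genes. In MLL4/LSD1 DKO ESCs Tcl1 was at 64.0, 69.0, 36.5 and 36.5 CPM, which overlaps WT (−0.34 ± 0.15, adjusted p = 0.0718). The difference between MLL4 KO and MLL4/LSD1 DKO ESCs was not tested. In MLL4/LSD1 DKO ESCs Tfcp2l1 (−1.37 ± 0.14) and Tbx3 (−1.16 ± 0.18) were called lower, beside 12.3% of all genes, and neither was called with WT ESC libraries 10 and 11 as the only WT libraries. Nr0b1 was at 83.9, 72.5, 96.5 and 77.9 CPM in MLL4 KO/LSD1 CI ESCs, above every WT library, and its fold of 0.99 ± 0.14 lay at the fold threshold. All mutants here were set against the same WT libraries.

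**Figure D5:**
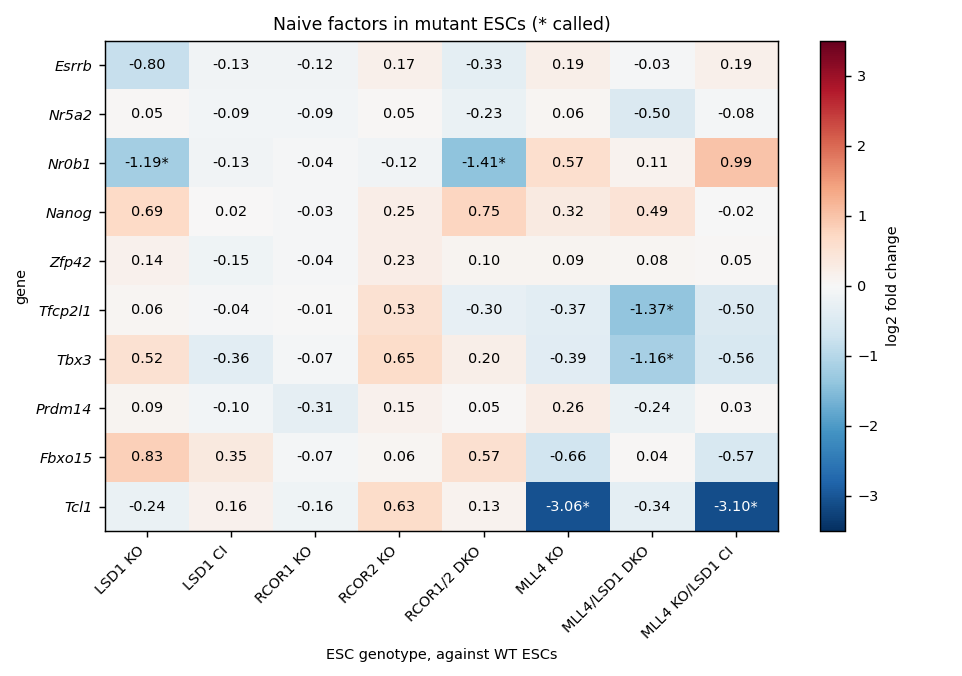
Log2 fold changes of the 10 members in 8 mutant naive ESC lines against WT ESCs, as a coloured grid with the value in each cell and the called cells marked. Colour stands out for Tcl1 in MLL4 KO (−3.06) and MLL4 KO/LSD1 CI ESCs (−3.10), and a paler blue marks Nr0b1 in the LSD1 KO (−1.19) and RCOR1/2 DKO (−1.41) lines and Tfcp2l1 (−1.37) and Tbx3 (−1.16) in the MLL4/LSD1 DKO line.

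Nr0b1 was higher with DOX in LSD1Res ESCs, where DOX induces LSD1 in the LSD1 KO. In these ESCs Nr0b1 was at 47.9, 38.8, 26.2 and 26.1 CPM without DOX and 96.0, 87.2, 74.4 and 58.2 CPM with it, with no overlap (1.22 ± 0.25, adjusted p = 0.00334). Without DOX it lay within the WT ESC range (20.0 to 55.7 CPM), and with DOX above every WT ESC library. Kdm1a RNA with DOX (980 to 2253 CPM) was above every WT ESC library (141 to 226 CPM). The study reports less LSD1 protein in these cells with DOX than in WT ESCs, so this RNA does not measure LSD1 protein. Nr0b1 was the 1 member called, beside 2.37% of all genes. The call went without LSD1Res noDOX library 3 or 4 or DOX library 1 or 2 and with the compared groups alone. Esrrb was higher with DOX by 0.34 ± 0.05 (adjusted p = 0.000552; 593, 541, 532 and 568 against 691, 657, 697 and 709 CPM), and Nanog was lower by 0.23 ± 0.07, both within the fold threshold. In DKO+LSD1 ESCs, which have the induced LSD1 and neither RCOR1 nor RCOR2, edgeR and DESeq2 called no member (0.332% of all genes by edgeR), and 7 members had an unadjusted p under 0.05. Nr0b1 there was at 22.0, 17.5, 21.6 and 17.3 CPM without DOX and 29.8, 30.2, 19.1 and 14.9 CPM with it, which overlap, and its 95% interval ran from −0.24 to 0.73. By replicate number, Nr0b1 was higher with DOX in 1 and 2 and lower in 3 and 4. Kdm1a with DOX was at 1830, 2181, 6038 and 5761 CPM. Tcl1 was at 66.5, 62.1, 63.9 and 68.2 CPM without DOX and 63.0, 55.4, 32.2 and 29.5 CPM with it. The main fit did not use the numbers as pairs, and a split by number was not tested. DOX in LSD1 KO ESCs without the transgene gave no call by edgeR (0.0178% of all genes) or DESeq2 and 0 members at an unadjusted p under 0.05, with Nr0b1 at 27.6 and 20.2 CPM without DOX and 33.6 and 25.8 CPM with it, which overlap. Whether the DOX response differs between these lines was not tested.

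Across the 34 groups, the pattern of Esrrb was shared by most members and by genes outside the list. Pearson correlations were taken between group means of log2(CPM + 1) over 13329 genes with at least 5 CPM in a group, and they describe libraries that share controls and cultures. The genes outside the list most like Esrrb were Phf11d (0.974), Spp1 (0.972), 2410137M14Rik (0.964), Klf2 (0.959) and Kat6b (0.958). Among the members Zfp42 (0.970) and Fbxo15 (0.968) ranked 3 and 4 of all genes. Nr5a2 (0.943), Prdm14 (0.927), Tfcp2l1 (0.915), Nanog (0.885), Nr0b1 (0.878) and Tcl1 (0.867) followed, with ranks from 22 to 261. Tbx3 was apart, at 0.506 and rank 2537. Within the 17 ESC groups its correlation with Esrrb was 0.292, and within the 17 other groups −0.529, where Tbx3 was high in the EBs in which Esrrb was low. A low value within the ESC groups was not particular to Tbx3. Fbxo15 was lower there (0.190), and the remaining members ran from 0.345 (Tcl1) to 0.856 (Nr0b1). Within the other groups every member but Tbx3 was above 0, from 0.574 (Tfcp2l1) to 0.938 (Fbxo15).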

How the data were processed

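Rows for 10 named genes were read from the 112 count files (1 per library) and described within 34 groups taken from the sample labels. The members, the gene lists and the tests were chosen with earlier results of these data known. Per the study's methods and the submitters' processing notes, the authors depleted ribosomal RNA, made directional paired-end libraries, trimmed the reads, aligned them to mm9 with STAR 2.7.9a, removed duplicates with Picard 2.25.5 and counted reads per gene on the reverse strand with featureCounts. The deposited values are raw counts per gene with no normalization, and 72.2% to 84.7% of the counts from 2 to 39 were even, so mates appear to have been counted apart and 1 fragment gives about 2 counts. CPM used the total of all genes, and RPKM also the length of merged exons in the count files.

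Differences were tested with edgeR 4.0.16 (quasi-likelihood, robust, TMM, filterByExpr by group, limma 3.58.1, R 4.3.3) on whole tables in 10 fits for 38 comparisons. Calls needed 2 things, a p under 0.01 after Benjamini-Hochberg adjustment over the genes tested and a log2 change of more than 1 in size. The study set the same limits on DESeq2. All 10 members passed the filter in each comparison. A ± after a log2 fold change is its SE, and intervals are 1.96 SE to each side. The fits that hold WT ESC 1 to 3 and LSD1 KO ESC 1 to 6 had a term for the alignment those libraries shared. The scripts were tested on simulated counts. Genes named were the 10 members, the 5 genes most like Esrrb, up to 4 called genes of smallest adjusted p per list, and Kdm1a; other genes of short lists (Utf1, Lifr and Tet2 in EBs, Il6st, Gbx2, Socs3, Zic1 and Zscan4c) were named after their values were seen. The 9 lists were other naive network genes, formative and primed epiblast, primitive endoderm, trophoblast, germ cells, early mesoderm and heart, neural, two-cell-like, and naive repressors and exit factors.

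Alternatives were DESeq2 1.42.0, its size factors in edgeR, no filter on low counts, halved counts, Rn45s left out, no alignment term, compared groups only, the replicate number as a block, and each library left out in turn. After seeing the data, WT EB library 5 was left out and WT ESC libraries 10 and 11 were taken as the only WT libraries beside the MLL4 mutants. The replicate numbers paired the DOX libraries of LSD1Res (correlations of deviations 0.657 to 0.705) and DKO+LSD1 cells (0.585 to 0.658) over 4 numbers each, and not the libraries of the other comparisons. Depth limits the members under 1 CPM, where 3 counts come to 0.0640 to 0.174 CPM in the shallowest library of a group.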

Additional observations from a re-analysis of the deposited data

Results flagged for a closer look

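The checks for single libraries far from their group covered 150 sets of a member in a group of 4 to 10 libraries, and 3 stood out, while chance alone sets about 1 in 20 apart. Tfcp2l1 was at 49.5 CPM in LSD1 CI EB library 4 against 18.1 to 19.8 CPM in the other 3 libraries. Tbx3 was at 197 CPM in RCOR1 KO ESC library 2 against 164 to 167 CPM in the other 3. Fbxo15 was at 4.44 CPM in WT EB library 6 against 0.0558 to 1.84 CPM in the other 6.

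The other results set apart here are effects of LSD1 loss that differed from those in naive ESCs by the test of the difference itself (log2 scale, edgeR). In EBs they were Nr0b1 (4.74 ± 0.50), Zfp42 (3.06 ± 0.47), Esrrb (2.65 ± 0.51), Nanog (2.23 ± 0.45), Nr5a2 (1.56 ± 0.31) and Tbx3 (−3.36 ± 0.62). In serum they were Prdm14 (4.37 ± 0.69), Esrrb (3.55 ± 0.63), Tcl1 (3.47 ± 0.72), Tfcp2l1 (3.20 ± 0.37), Tbx3 (3.05 ± 0.68) and Nr0b1 (2.75 ± 0.55). In EpiLCs they were Esrrb (2.76 ± 0.61) and Tfcp2l1 (2.02 ± 0.36). The effect in ESCs comes from the 6 untreated LSD1 KO ESC libraries, in which Esrrb and Nr0b1 were lower than in LSD1 KO ESCs in DMSO or without DOX. Tbx3 is the gene with a difference below 0 in EBs and above 0 in serum, and its level in WT cells was 41.6 to 316 CPM in EBs and 3.07 to 3.08 CPM in serum.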

How the results depend on the processing

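Over 4313 recomputed tests of single members, 4100 kept their direction and side of the threshold, 87 passed it anew, 126 lost it and none reversed among called values, and of 432 counts of members 375 stayed within 1.5 times. The cause of the following changes was not tested, except that leaving libraries out leaves fewer to test. With the replicate number as a block, the counts became 4 (from 2) for WT serum against EpiLCs, 0 (from 1) for RCOR1/2 DKO ESCs, 3 (from 1) for MLL4 KO ESCs, 1 (from 2) for MLL4/LSD1 DKO ESCs, 0 (from 1) for RCOR2 KO EBs, 7 (from 3) for LSD1 KO against CI EBs and 6 (from 2) for the EpiLC difference, and the block moved no other count by over 1.5 times. With the compared groups only they became 4 for WT serum against EpiLCs, 2 (from 1) for MLL4 KO/LSD1 CI ESCs, 3 (from 6) for LSD1 KO EBs, 0 (from 1) for RCOR2 KO EBs and for DOX in LSD1Res, and 8 for the EpiLC difference. With no filter on low counts they became 1 for WT serum against EpiLCs, 2 (from 4) for LSD1 CI serum cells and 1 for the EpiLC difference. DESeq2 gave 2 for MLL4 KO/LSD1 CI ESCs, as did its size factors and no alignment term, and 5 for the EpiLC difference, and halved counts gave 4 for that. Without the alignment term LSD1 KO ESCs had 2 (from 1), with Fbxo15 added. With WT ESC libraries 10 and 11 as the only WT libraries MLL4/LSD1 DKO ESCs had 0 (from 2). Leaving out 1 library at a time gave 0 to 1 for WT serum against EpiLCs, 1 to 2 for MLL4 KO/LSD1 CI ESCs, 1 to 3 for LSD1 KO EBs, 0 for RCOR2 KO EBs, 1 to 6 for LSD1 KO against CI EBs, 3 to 5 for LSD1 KO against CI serum cells, 0 to 4 for LSD1 CI EpiLCs, 1 to 3 for LSD1 KO against CI EpiLCs, 0 to 1 for DOX in LSD1Res, 2 to 5 for the serum difference and 0 to 1 for the EpiLC difference. TMM scaling put group levels at 0.900 to 1.12 times the CPM, and leaving out Rn45s at 1.10 to 1.32 times.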
